A study of Mus musculus with 9 samples.

Results

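The expression of 9 transcription factors that specify or maintain the identity of the intestinal epithelium was examined in the colon of mice: the caudal homeobox factors Cdx1 and Cdx2, the nuclear receptors Hnf4a and Hnf4g, the zinc finger factors Gata4 and Gata6, the Krüppel-like factors Klf4 and Klf5, and the endoderm factor Sox17. They were taken by gene symbol, with earlier results of these data known, so the choice of factors is not independent of those results. All 9 were found among the 21498 gene symbols of the deposited tables, each as a single row. Of these, 8 passed the filter for testing (at least 0.1 FPKM in at least 3 of the 9 samples) and Gata4 did not. FPKM counts fragments scaled by transcript length and by the fragments mapped in the sample, so levels of different genes can be set side by side per length.

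Bulk RNA was sequenced from 3 groups of 3 mice, all male ICR mice aged 5 weeks at the start and killed at the end of week 18. Control mice received neither AOM/DSS nor an antibody. IgG mice were injected once with the colon carcinogen azoxymethane (AOM, 10 mg/kg) and then drank dextran sulfate sodium (DSS), which injures the colon lining, over 3 cycles. The first cycle used 2% DSS and lasted 7 days, and each later cycle used 1.5% and lasted 5 days. During these cycles the IgG mice were given a negative control IgG antibody at 1.5 mg/kg into a vein every 2 days. The anti-A9 mice received the same AOM/DSS course with an antibody against S100a9 at the same dose and schedule. The Control samples are labelled normal colorectal mucosa and the samples of both AOM/DSS groups are labelled colorectal adenocarcinoma. The study's own text calls the IgG samples adenocarcinoma tissue but the anti-A9 samples mucosa, and the share of tumor in each sample is not given in the sources used here. In anti-A9 against IgG the antibody and a difference in the tissue taken therefore cannot be told apart. Fewer cells of a type and less RNA per cell cannot be told apart in bulk tissue.

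CDX2 and CDX1 bind and open the enhancers of intestinal genes, and in mice without CDX2 the gut lining takes on gastric or squamous features. HNF4A and HNF4G act beside them on genes of absorptive cells, KLF5 is known from dividing crypt cells and KLF4 from differentiated surface and goblet cells, and GATA4 is known from the upper small intestine while GATA6 is also made in the colon. SOX17 is needed to form endoderm in the embryo, is made by arterial endothelium in the adult and can bind β-catenin, the effector of Wnt signaling.

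On GRCm38, with the gene spans of GENCODE M21, Cdx2 lies at chr5:147300805-147307270 on the minus strand, Hnf4a at chr2:163506808-163572910 on the plus strand, Hnf4g at chr3:3508030-3658052 on the plus strand, Gata4 at chr14:63198922-63271692 on the minus strand, Klf4 at chr4:55527143-55532466 on the minus strand, Klf5 at chr14:99298691-99315036 on the plus strand and Sox17 at chr1:4490931-4497354 on the minus strand. The antisense genes that overlap Hnf4a, Gata6 and Sox17 have no row in the files, and whether strand was used in counting is not given in the sources used here.

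Hnf4a is read from an upstream and a downstream start, usually called P2 and P1, and a value per gene symbol adds the transcripts of both. Promoter sequences are shown for 3 of the 9 factors, in 4 windows, by what was at hand and not by test result. Of the 3, Hnf4a passed the test between the AOM/DSS groups, and Klf4 and Cdx2 did not. Cdx1 and Gata6 were left out of the sequences and of the search below. No RefSeq promoter was at hand for Hnf4g, Gata4, Klf5 and Sox17. They run 5′ to 3′ towards the start, on GRCm38.p6, and stop before the start where an annotated coding gene's exon begins (Cdx2 and the upstream start of Hnf4a): Hnf4a upstream start, chr2:163506607-163506807 on the plus strand, Hnf4a downstream start, chr2:163546905-163547154 on the plus strand, Klf4, chr4:55532476-55532725 on the minus strand, and Cdx2, chr5:147307271-147307499 on the minus strand. They are in lower case throughout, since no core searched for lay within the bases printed.
Hnf4a upstream start: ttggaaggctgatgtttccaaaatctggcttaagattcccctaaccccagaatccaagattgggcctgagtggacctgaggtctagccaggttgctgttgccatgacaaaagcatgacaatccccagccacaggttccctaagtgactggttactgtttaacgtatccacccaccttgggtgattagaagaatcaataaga
Hnf4a downstream start: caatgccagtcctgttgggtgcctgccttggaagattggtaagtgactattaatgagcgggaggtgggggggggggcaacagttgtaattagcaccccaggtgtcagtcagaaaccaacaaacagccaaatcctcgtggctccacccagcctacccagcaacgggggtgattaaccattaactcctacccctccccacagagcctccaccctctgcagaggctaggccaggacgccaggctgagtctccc
Klf4: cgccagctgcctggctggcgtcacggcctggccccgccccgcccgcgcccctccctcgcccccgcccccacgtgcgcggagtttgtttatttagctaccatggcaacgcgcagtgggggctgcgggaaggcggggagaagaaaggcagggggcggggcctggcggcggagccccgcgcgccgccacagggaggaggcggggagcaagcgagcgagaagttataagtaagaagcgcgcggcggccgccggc
Cdx2: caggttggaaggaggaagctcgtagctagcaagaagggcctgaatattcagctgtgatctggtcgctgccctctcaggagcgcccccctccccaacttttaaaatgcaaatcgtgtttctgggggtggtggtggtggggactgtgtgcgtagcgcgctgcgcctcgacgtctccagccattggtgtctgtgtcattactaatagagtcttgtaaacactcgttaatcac

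The 250 bases before each start were searched on both strands for 6 short cores. The GATA core AGATAA lay at bases 52 to 47 before the upstream start of Hnf4a, partly past the bases printed, and 9.99% of the 32851 RefSeq promoter windows of that length hold it. No match was found in these 4 windows for the CDX core TTTATG (10.8% of all windows), the HNF4 core CAAAGTCC (1.2%), the KLF core CCNCACCC (14.9%), the SOX core ATTGTT (9.42%) or the TCF/LEF core ATCAAAG (3.21%). These matches describe letters and are not evidence of binding.

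The files give no counts, so the depth of each sample is unknown. Their headers name no unit, and the values are taken as FPKM from their size and from the tools named in the submitters' processing notes. FPKM summed to between 308377 and 408811 per sample. All 10 epithelial markers examined were high in every sample (summed level 4008 to 6273 FPKM). IgG replicate 1 stood apart: its correlation with the other IgG samples was 0.917 and 0.934 against 0.947 between those, its 11 Wnt target genes summed to 1519 FPKM against 352 and 404 in the other IgG samples, and its 27 intestinal differentiation genes summed to 1719 FPKM against 4269 and 4359. Results are therefore also given without it.

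FPKM moved with transcript composition as well. Over 14926 of the genes tested (97.7%), the quartile of highest GC content stood from the quartile of lowest GC content by -0.33 to -0.31 (median log2 deviation from the gene means) in the anti-A9 samples, by 0.02 to 0.44 in the IgG samples, and by -0.19, -0.0021 and 0.57 in Control replicates 1, 2 and 3. For transcript length the same difference was 0.34 to 0.52 in anti-A9, -0.49 to -0.02 in IgG, and 0.18, -0.0095 and -0.73 in Control replicates 1, 2 and 3. The anti-A9 and IgG samples did not overlap in either measure. The factors sit at different places on these scales: Cdx1 (62.1% GC) is richer in GC than 98.1% of the genes tested and Cdx2 (57.5%) than 88.2%, while Hnf4g (41.5%) is richer than only 9.60%, Klf5 (47.9%) than 38.7% and the others lie between 52.6% and 57.4% GC. Fold changes after removing a smooth dependence on both properties from each sample, a correction chosen after the data had been seen, are given beside the results they move.

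Per length, the factors covered more than 3 orders of magnitude in Control colon. Mean levels were 257 FPKM for Cdx1, 138 for Klf4, 120 for Hnf4a, 79.1 for Klf5, 23.8 for Cdx2, 16.8 for Gata6, 3.92 for Hnf4g, 1.22 for Sox17 and 0.0364 for Gata4. Cdx1 stood above 98.5% of the genes tested in its mean over all 9 samples. In this order the Control samples of Klf4 and Hnf4a overlapped, as did those of Hnf4a and Klf5 and those of Hnf4g and Sox17, and the other neighbours did not. The last named pair changed places between the groups: Sox17 (4.87 to 14.0 FPKM) was above Hnf4g (0.665 to 1.70) in all 3 IgG samples, and Hnf4g (5.18 to 8.11) was above Sox17 (1.01 to 2.48) in all 3 anti-A9 samples.

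**Figure D1:**
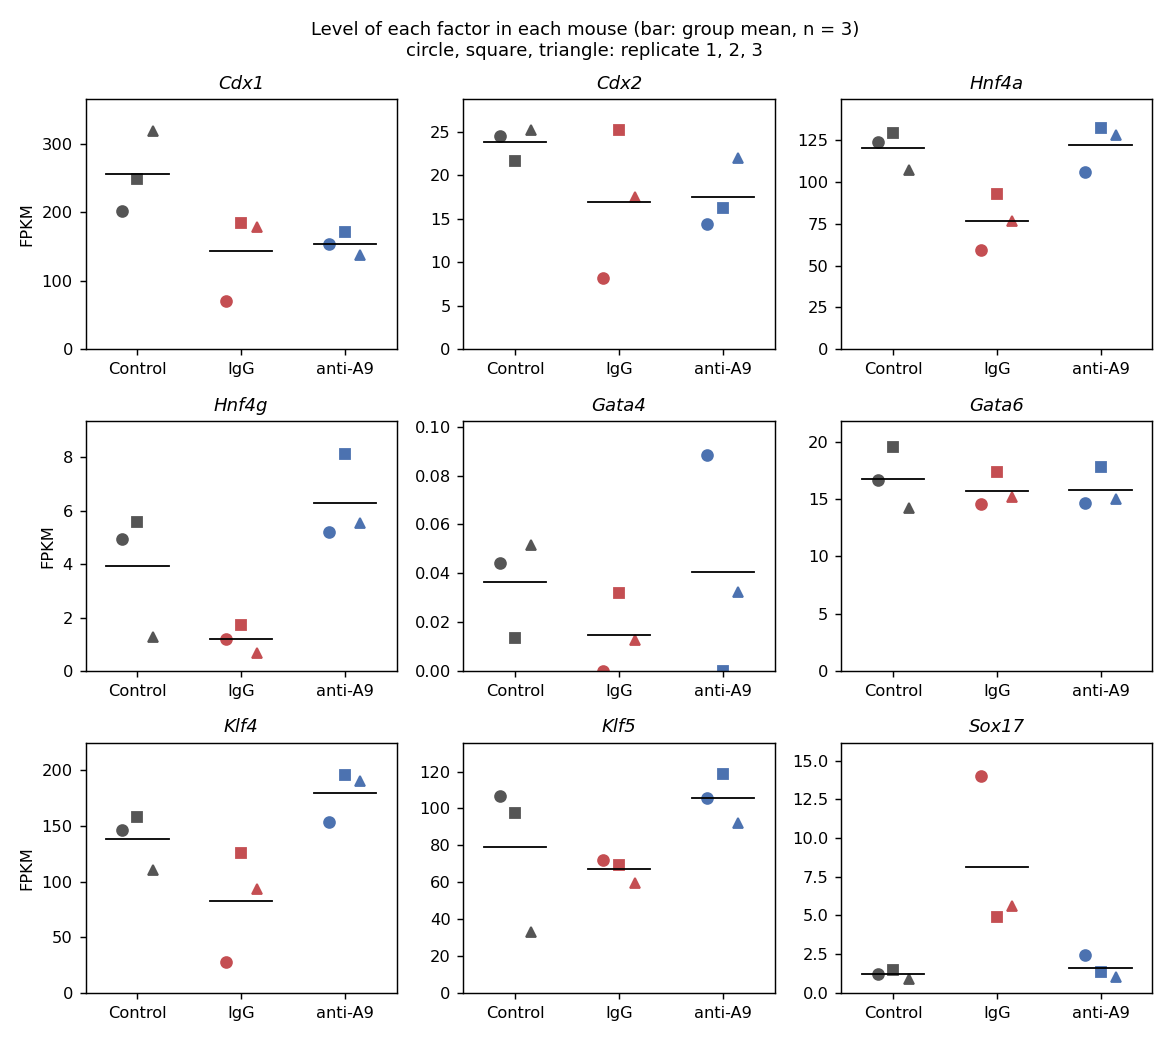
FPKM (vertical axis, from 0, a scale of its own for each gene) of the 9 factors in each mouse of the Control, IgG and anti-A9 groups, with circles, squares and triangles for replicates 1, 2 and 3 and a bar for the mean of the 3 mice. Hnf4a is lower and Sox17 higher in all 3 IgG samples than in any other sample, Gata6 lies between 14.2 and 19.5 FPKM throughout, and Gata4 stays under 0.09 FPKM.

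Between IgG and Control colon, Sox17 rose 5.69-fold and no other factor passed the test. The test was limma's moderated test on log2(FPKM + 0.1) over all 15278 genes, and a gene is called here at a Benjamini-Hochberg adjusted p under 0.05. Among all genes tested, 8.18% were called higher in IgG and 3.01% lower, beside 1 of the 8 factors called higher and 0 called lower. By the study's own thresholds, an unadjusted p under 0.05 with more than 2-fold change, 8.43% of all genes were higher and 5.19% lower, and among the factors Sox17 was higher and Hnf4g lower. The median log2 fold change of the 8 factors was -0.65, against 0.09 for all genes tested, and 7 of the 8 were below 0. After the length and GC correction Sox17, Hnf4a and Cdx1 were called (3 of 8), where 7.07% of all genes were called higher and 6.61% lower.

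Between anti-A9 and IgG colon, Hnf4a rose 1.62-fold and Hnf4g 5.15-fold, and Sox17 fell by 2.19 on the log2 scale. Here 6.72% of all genes were called higher and 14.4% lower, beside 2 and 1 of the 8 factors. By the study's thresholds 7.64% were higher and 8.38% lower, and the factors past them were Hnf4g and Klf4, higher, and Sox17, lower. The median log2 fold change of the factors was 0.43, against -0.06 for all genes. Both comparisons use the same 3 IgG samples, so opposite signs in them are not independent. Without IgG replicate 1, without IgG replicate 3 or without anti-A9 replicate 1 only Sox17 was called (1 of 8), and without anti-A9 replicate 2 or replicate 3 none was (0 of 8). The calls over all genes fell in the same fits, from 21.1% of the genes tested with all mice to between 3.39% (without anti-A9 replicate 2) and 10.4% (without IgG replicate 1).

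Between anti-A9 and Control colon, 0 of the 8 factors passed limma's test, and 0 of 8 had an unadjusted p under 0.05. Of all 15278 genes tested, 2439 had an unadjusted p under 0.05, so 0 of 8 factors says little about the factors themselves. Of all genes tested, 0.00655% were called higher and 0.00655% lower, so that this comparison had almost no calls anywhere, and by the study's thresholds 2.28% were higher and 0.864% lower, with none of the factors among them. The median log2 fold change of the 8 factors was 0.17.

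**Figure D2:**
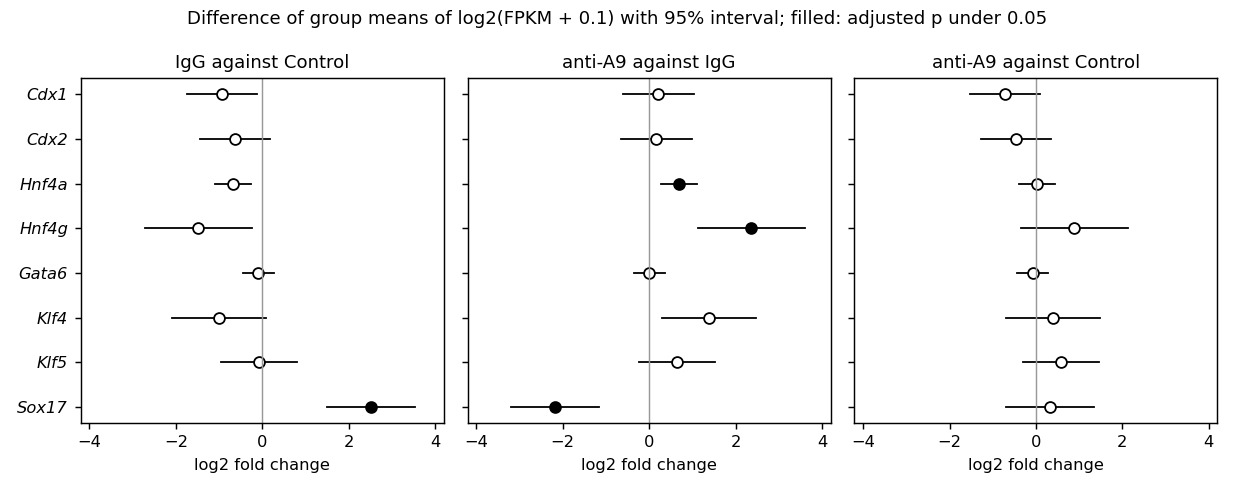
Log2 fold change (horizontal axis) of the 8 factors tested in IgG against Control, anti-A9 against IgG and anti-A9 against Control, with the 95% interval of limma's fit to all 9 samples and filled points for an adjusted p under 0.05. Sox17 lies at 2.51 in the first panel and at -2.19 in the second, Hnf4a and Hnf4g are filled in the second only, and the third panel has no filled point.

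Cdx1 was at 202, 249 and 319 FPKM in Control, at 70.0, 184 and 179 in IgG and at 153, 171 and 138 in anti-A9. Every IgG and every anti-A9 sample was below the lowest Control sample, and IgG replicate 1 was far below the rest. Cdx1 is made along the crypt of the colon. Its log2 fold change in IgG against Control was -0.93 (SE 0.36, limma adjusted p = 0.123) and moved to -1.37 (adjusted p = 0.0239), a call, with the length and GC correction. Without IgG replicate 1 it was -0.48 (adjusted p = 0.217). For anti-A9 against IgG it was 0.22 (95% interval -0.60 to 1.03, adjusted p = 0.678), which moved to 0.92 (adjusted p = 0.0735) with the correction and to -0.24 without IgG replicate 1, so its sign depended on that mouse. For anti-A9 against Control it was -0.72 (adjusted p = 0.345), and -0.45 with the correction.

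Cdx2, the factor best known for setting intestinal identity, was at 24.5, 21.7 and 25.2 FPKM in Control, at 8.14, 25.2 and 17.4 in IgG and at 14.3, 16.2 and 21.9 in anti-A9. IgG replicate 1 was the lowest of all and IgG replicate 2 the highest, so the groups overlapped in every comparison. The log2 fold change in IgG against Control was -0.63 (95% interval -1.44 to 0.19, limma adjusted p = 0.275), -0.88 (adjusted p = 0.118) with the length and GC correction, and -0.18 without IgG replicate 1. Anti-A9 and IgG differed by 0.17 (95% interval -0.65 to 0.98, adjusted p = 0.753), moving to 0.64 with the length and GC correction and to -0.28 without IgG replicate 1. Ratios within a sample, here and below, were taken on FPKM + 0.1. That of Cdx1 to Cdx2 was 8.20, 11.4 and 12.6 in Control, 8.50, 7.26 and 10.2 in IgG and 10.6, 10.5 and 6.25 in anti-A9. The groups overlapped.

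Hnf4a was at 124, 130 and 107 FPKM in Control, at 59.6, 93.0 and 76.6 in IgG and at 106, 132 and 128 in anti-A9. All 3 IgG samples were below all 6 others. The log2 fold change in IgG against Control was -0.67 (SE 0.19) with a limma adjusted p of 0.0503, just outside the threshold. It was called with the length and GC correction (-0.77, adjusted p = 0.0301), with median-of-ratios scaling (-0.78, adjusted p = 0.0475) and without IgG replicate 2 (-0.83, adjusted p = 0.0245), and it was -0.51 (adjusted p = 0.113) without IgG replicate 1. Anti-A9 and IgG differed by 0.69 (SE 0.19, adjusted p = 0.0328), and 0.72 (adjusted p = 0.0380) with the correction. That call held in 3 of 9 leave-one-out fits, those without Control replicate 1, Control replicate 3 and IgG replicate 2, and without IgG replicate 1 the value was 0.53 (adjusted p = 0.0720). Anti-A9 and Control differed by 0.02 (95% interval -0.40 to 0.44).

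Hnf4g, the paralog of Hnf4a in absorptive cells, was at 4.92, 5.58 and 1.25 FPKM in Control, at 1.19, 1.70 and 0.665 in IgG and at 5.18, 8.11 and 5.52 in anti-A9. Control replicate 3 lay within the IgG range, and the anti-A9 samples were above all IgG samples. Control replicate 3 is also the sample with the largest excess of GC-rich over GC-poor genes while Hnf4g is GC-poor, and the part of this in its value was not tested for that mouse alone. In IgG against Control the log2 fold change was -1.48 (SE 0.55, limma adjusted p = 0.113), it was -1.61 (adjusted p = 0.0776) with the length and GC correction, and without Control replicate 3 it was -2.14 (adjusted p = 0.0202). In anti-A9 against IgG it was 2.37 (SE 0.55, adjusted p = 0.0219), and 2.39 (adjusted p = 0.0264) with the length and GC correction. It held in 4 of 9 leave-one-out fits, those without each Control sample and without IgG replicate 2, and without IgG replicate 1 the value was 2.41 (adjusted p = 0.0521). On FPKM + 0.1, the ratio of Hnf4a to Hnf4g was 24.7, 22.8 and 79.0 in Control, 46.2, 51.7 and 100.2 in IgG and 20.1, 16.1 and 22.8 in anti-A9. The added 0.1 lowered this ratio most where Hnf4g was lowest, in IgG replicate 3. The IgG and anti-A9 ratios did not overlap, a log2 difference of -1.67 with an exact two-sided permutation p of 0.1, the smallest that 3 against 3 samples allow, and 0.857 after adjustment over 12 ratio tests.

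Gata6 was the steadiest factor, at 16.6, 19.5 and 14.2 FPKM in Control, 14.6, 17.4 and 15.1 in IgG and 14.7, 17.7 and 14.96 in anti-A9. The groups overlapped in each comparison. The log2 fold changes were -0.09 (95% interval -0.44 to 0.27), 0.01 (-0.34 to 0.36) and -0.08 (-0.43 to 0.27) for IgG against Control, anti-A9 against IgG and anti-A9 against Control. Gata4 was at 0.0442, 0.0133 and 0.0516 FPKM in Control, at 0, 0.0319 and 0.0125 in IgG and at 0.0884, 0 and 0.0325 in anti-A9. It was under the filter in every sample and was not tested. Gapdh is listed at no more than 0.755 FPKM in these files, so a value near 0 says only what is listed.

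Klf4 was at 147, 158 and 111 FPKM in Control, at 27.4, 126 and 93.3 in IgG and at 154, 195 and 191 in anti-A9. Every anti-A9 sample was above every IgG sample, and IgG replicate 1 was again the lowest. In anti-A9 against IgG the log2 fold change was 1.38 (SE 0.48, limma adjusted p = 0.0696), past the study's thresholds but not called here, and 1.60 (adjusted p = 0.0562) with the length and GC correction. It was 0.72 (adjusted p = 0.0653) without IgG replicate 1, and it was called without IgG replicate 2 (1.82, adjusted p = 0.0267) and with quantile normalization (1.64, adjusted p = 0.0477). In IgG against Control it was -0.996 (95% interval -2.09 to 0.10, adjusted p = 0.205), and -0.34 without IgG replicate 1.

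Klf5 was at 107, 97.3 and 33.0 FPKM in Control, at 72.3, 69.4 and 59.4 in IgG and at 106, 119 and 91.9 in anti-A9. Control replicate 3 was the lowest of the 9 samples, while the anti-A9 samples were all above the IgG samples. In IgG against Control the log2 fold change was -0.07 (95% interval -0.95 to 0.82, limma adjusted p = 0.926). Without Control replicate 3 it was -0.61 and called (adjusted p = 0.0449), and the fit without that mouse also called anti-A9 against IgG, at 0.65 (adjusted p = 0.0159, against 0.242 with all mice). The ratio of Klf4 to Klf5 was 1.37, 1.62 and 3.35 in Control, 0.380, 1.82 and 1.57 in IgG and 1.45, 1.65 and 2.07 in anti-A9. Klf5 exceeded Klf4 in IgG replicate 1 and in no other sample.

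**Figure D3:**
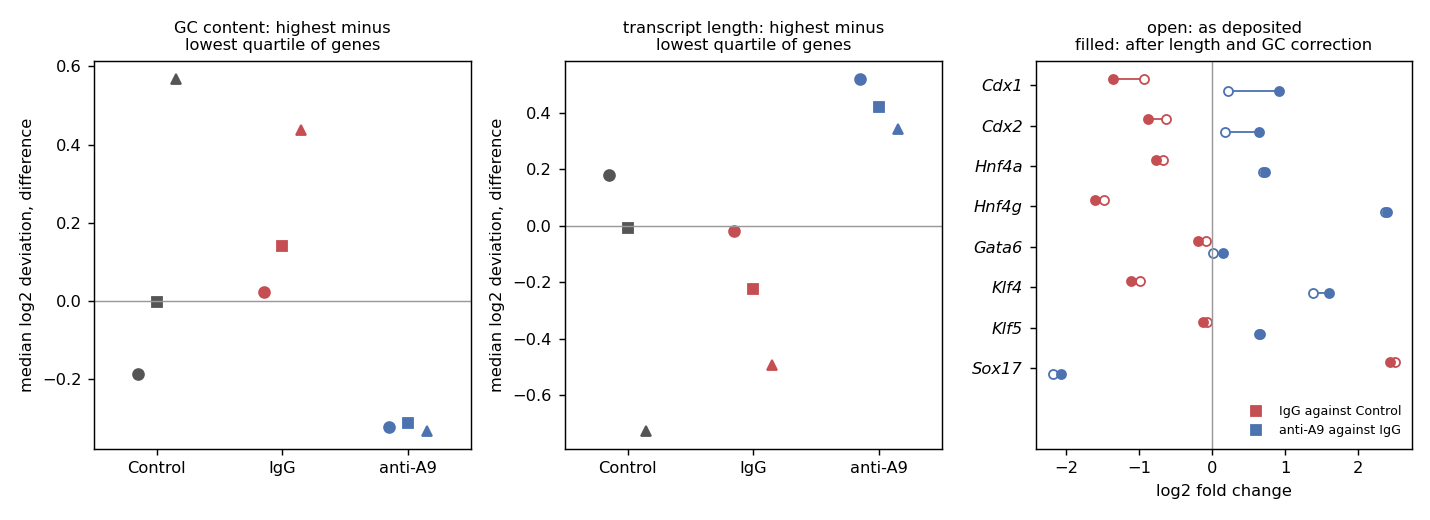
Left and middle, difference in median log2 deviation between the quartiles of highest and lowest GC content and transcript length in each mouse (replicates 1, 2 and 3 as circles, squares and triangles). Right, log2 fold change of each factor before (open) and after (filled) the length and GC correction, red for IgG against Control and blue for anti-A9 against IgG. Cdx1 moves most, from -0.93 to -1.37 and from 0.22 to 0.92.

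Sox17 was at 1.22, 1.50 and 0.923 FPKM in Control, at 14.0, 4.87 and 5.60 in IgG and at 2.48, 1.38 and 1.01 in anti-A9. All 3 IgG samples were above all 6 others, with IgG replicate 1 the highest, and the Control and anti-A9 samples overlapped. In IgG against Control the log2 fold change was 2.51 (SE 0.45, limma adjusted p = 0.0113), and it was called whichever of the 9 mice was left out, with values from 2.04 to 2.79. In anti-A9 against IgG it was -2.19 (SE 0.45, adjusted p = 0.0165), called in 7 of those 9 leave-one-out fits and missed without anti-A9 replicate 2 (-2.12, adjusted p = 0.0626) and without anti-A9 replicate 3 (-1.91, adjusted p = 0.0542). Without IgG replicate 1 the values were 2.04 and -1.72, both called. The anti-A9 and Control groups differed by 0.32 (95% interval -0.70 to 1.34).

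Endothelium, where SOX17 and its relative SOX18 are normally found, was followed with 12 markers. None of the 12 was called in any comparison by limma (0 of 12 at an unadjusted p under 0.05 in IgG against Control, 1 of 12 in anti-A9 against IgG and 0 of 12 in anti-A9 against Control). Their summed level was 51.5 to 59.0 FPKM in Control, 42.9 to 104 in IgG and 57.2 to 75.3 in anti-A9, all 12 were above 0 in every sample, and the IgG sample with the highest Sox17, replicate 1, had the lowest endothelial sum. Sox18 itself was at 12.9, 12.3 and 14.6 FPKM in Control, 41.4, 38.9 and 26.2 in IgG and 17.9, 11.4 and 8.81 in anti-A9. It rose by 1.39 on the log2 scale in IgG against Control (limma adjusted p = 0.0145) and fell by 1.51 on the log2 scale in anti-A9 against IgG (adjusted p = 0.0109). Both Sox18 calls were lost with the length and GC correction, the first also without Control replicate 1 or 2 and the second without anti-A9 replicate 2. The 11 Wnt target genes were lower in every Control and anti-A9 sample (summed level 30.3 to 62.7 FPKM) than in every IgG sample (352 to 1519), the order also seen for Sox17. Whether endothelial or Wnt-active cells carry the Sox17 transcript was not tested.

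Each factor was also set against general epithelial genes of the same sample, as its log2 level minus the mean log2 level of the 10 epithelial markers. This removes the scaling of a sample. For IgG against Control the groups did not overlap for Cdx1 (-0.99), Hnf4a (-0.73) and Sox17 (2.45). For anti-A9 against IgG they did not overlap for Hnf4a (0.99), Hnf4g (2.67), Gata6 (0.31), Klf4 (1.68), Klf5 (0.95) and Sox17 (-1.89). For anti-A9 against Control they did not overlap for Cdx1 (-0.47), Hnf4g (1.13) and Klf4 (0.63). Each of these had an exact two-sided permutation p of 0.1, the smallest possible, and 0.225 after adjustment over 27 tests, so no difference could reach 0.05. Non-overlap was not counted for all genes on this measure. On plain FPKM, all IgG samples lay above all Control samples for 20.7% of the genes tested and below them for 10.2%. The shares above and below were 18.5% and 28.5% in anti-A9 against IgG, and 17.3% and 13.7% in anti-A9 against Control. The mean of the epithelial markers was itself 8.15 in Control, 8.21 in IgG and 7.91 in anti-A9 on the log2 scale, with SD 0.17 to 0.18. The differences of the factors on this measure include those of the mean. Gata6 in anti-A9 against IgG was at 0.01 without the reference. Krt18, among the 10 markers, was itself called higher in IgG than in Control and lower in anti-A9 than in IgG.

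**Figure D4:**
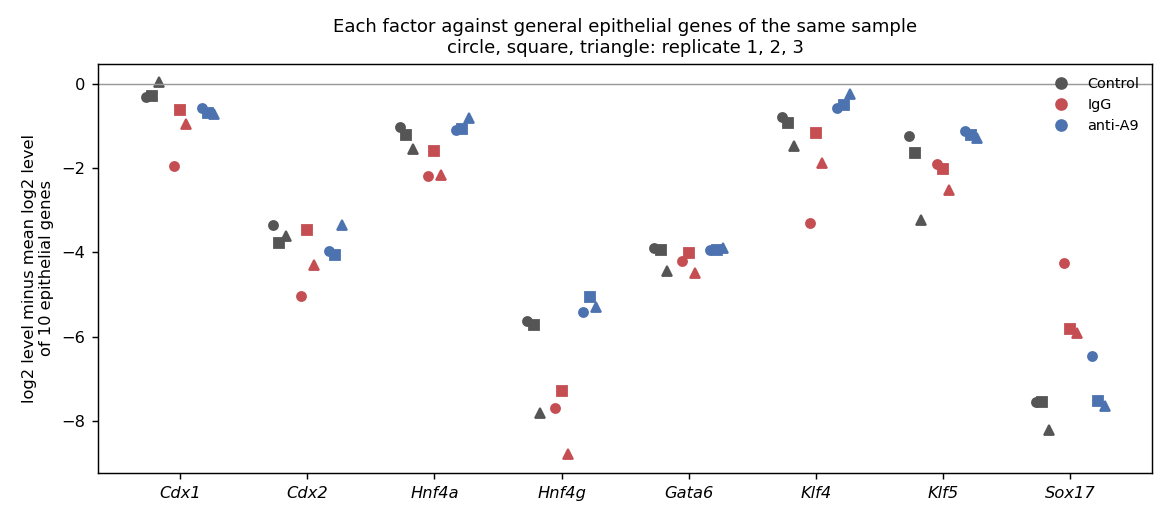
Log2 level of each factor minus the mean log2 level of 10 epithelial markers in the same sample (vertical axis), for Control (grey), IgG (red) and anti-A9 (blue), with circles, squares and triangles for replicates 1, 2 and 3. Gata4 (at or near 0 FPKM) is left out. The anti-A9 samples lie above the IgG samples for Hnf4a, Hnf4g, Gata6, Klf4 and Klf5 and below them for Sox17.

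Among 15 relatives in the same families, 13 were tested and 2 were called higher in IgG than in Control, with none called lower. Gata5, another GATA factor of the gut, was at 0.265, 0.131 and 0.358 FPKM in Control, 11.3, 3.64 and 7.50 in IgG and 0.383, 0.196 and 0.294 in anti-A9. It was higher in IgG by 4.35 on the log2 scale (limma adjusted p = 0.0012) and was lower in anti-A9 than in IgG by -4.17 (adjusted p = 0.00258), and both calls held whichever mouse was left out. Sox18, described above, was the other. In anti-A9 against IgG, Klf6 rose (0.93, adjusted p = 0.0172, lost without anti-A9 replicate 1 or 2) and Gata5 and Sox18 fell. The median log2 fold change of these relatives was 0.24 and -0.01 in the 2 comparisons.

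Of 27 other epithelial regulators, all tested, 2 were called higher and 1 lower in IgG than in Control, and 3 higher and 3 lower in anti-A9 than in IgG, with medians of -0.03 and 0.01. Isx, an intestine-specific homeobox gene, was at 0.532 to 1.23 FPKM in Control, 3.17 to 7.90 in IgG and 0.586 to 0.762 in anti-A9, and it differed by 2.45 (limma adjusted p = 0.00799) and -2.59 (adjusted p = 0.00765), called whichever mouse was left out. Foxa3, a forkhead factor of endoderm, rose by 0.94 (adjusted p = 0.0125) and fell by 1.10 on the log2 scale (adjusted p = 0.00814), and both calls were lost with the length and GC correction. Vdr, the vitamin D receptor, was at 48.1 to 70.5 FPKM in Control, 6.60 to 29.6 in IgG and 45.5 to 71.8 in anti-A9. Its differences of -1.90 (adjusted p = 0.0346) and 1.87 (adjusted p = 0.0272) were lost in 7 and 4 of 9 leave-one-out fits, with adjusted p up to 0.114.

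Genes of the differentiated intestine include many that CDX2 and HNF4 are known to bind. Of 27 listed, 22 were tested, and Apoa4 passed the filter only through the Control group. Of the other 21, 6 were called lower and 0 higher in IgG than in Control, with a median log2 fold change of -1.01. Between anti-A9 and IgG 6 were called higher and 0 lower, with a median of 0.86. Slc26a3, the chloride exchanger of surface colonocytes, was at 200.1, 186 and 85.1 FPKM in Control, 2.79, 29.9 and 8.26 in IgG and 118, 140 and 233 in anti-A9. Its log2 fold changes were -4.03 (limma adjusted p = 0.0124, 0.0516 without Control replicate 2) and 4.12 (adjusted p = 0.0115). Mep1a, a brush border protease, was at 35.0 to 41.1 FPKM in Control, 3.50 to 13.3 in IgG and 22.5 to 43.9 in anti-A9, differing by -2.51 (adjusted p = 0.00941) and 2.23 (adjusted p = 0.0138, 0.0535 without anti-A9 replicate 2). Without IgG replicate 1 the list had 6 calls lower and 1 higher in IgG against Control, but 3 higher and 1 lower in anti-A9 against IgG.

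Genes of gastric and squamous epithelium, not typical of normal colon, were read because they are known to appear where CDX2 is lost. Of 16 gastric genes 10 were tested, but 6 of them (Gkn1, Tff1, Tff2, Muc6, Atp4a and Aqp5) passed the filter on low values only through the IgG samples, so that their direction was set by the filter. Of the other 4, 1 (Gkn3) was called higher in IgG than in Control and lower in anti-A9 than in IgG. The first call held in 3 of 9 leave-one-out fits and the second in 6 of 9. Muc6, a gland mucin, was at no more than 0.00371 FPKM in Control, at 11.9, 1.70 and 1.10 in IgG and at no more than 0.113 in anti-A9. Sox2, a foregut factor, was at 15.02 FPKM in IgG replicate 1 and at no more than 0.576 in every other sample, and it was not called. Tff1 and Tff2 are listed at 0 in all Control and anti-A9 samples and at no more than 0.588 FPKM in IgG. Of 9 squamous genes 7 were tested, of which Krt6a and Dsg3 passed only through the IgG samples and Krt5 only through IgG and anti-A9 samples. The other 4 were all called higher in IgG than in Control and lower in anti-A9 than in IgG. Of 9 leave-one-out fits, the first calls held in 8 for Krt13 and Krt4, 7 for Krt14 and 6 for Krt15. The second calls held in 4 for Krt13, 8 for Krt4 and 7 for Krt14 and Krt15. The keratin Krt14 was at 0.797 to 1.68 FPKM in Control, 4.63 to 37.1 in IgG and 0.819 to 1.95 in anti-A9. Cdx2 was not called. It was lowest in IgG replicate 1 (8.14 FPKM) and highest in IgG replicate 2 (25.2 FPKM). The called genes that did not pass only through the IgG samples differed in their order among the IgG samples. Krt14, Krt4 and Krt15 were highest in IgG replicate 1, while Krt13 (9.84 FPKM) and Gkn3 (2.05 FPKM) were highest in IgG replicate 3. Muc6 was highest in IgG replicate 1 and lowest in IgG replicate 3. Whether the level of Cdx2 bears on these genes was not tested.

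Of 11 Wnt target genes tested, 10 were called higher in IgG than in Control (median 3.11) and 9 lower in anti-A9 than in IgG (median -3.19). Notum, Sp5 and Wif1, all feedback genes of the Wnt pathway, differed by 8.50, 7.77 and 6.96 in IgG against Control and by -7.14, -6.60 and -6.19 in anti-A9 against IgG, and were called whichever mouse was left out. Of the 10 general epithelial markers only Krt18 was called, higher in IgG than in Control by 1.19 (limma adjusted p = 0.0256) and lower in anti-A9 than in IgG by -1.42 (adjusted p = 0.0129), and both calls were lost with the length and GC correction, the first also without Control replicate 1 or 2 or IgG replicate 1 or 3 and the second without anti-A9 replicate 2.

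**Figure D5:**
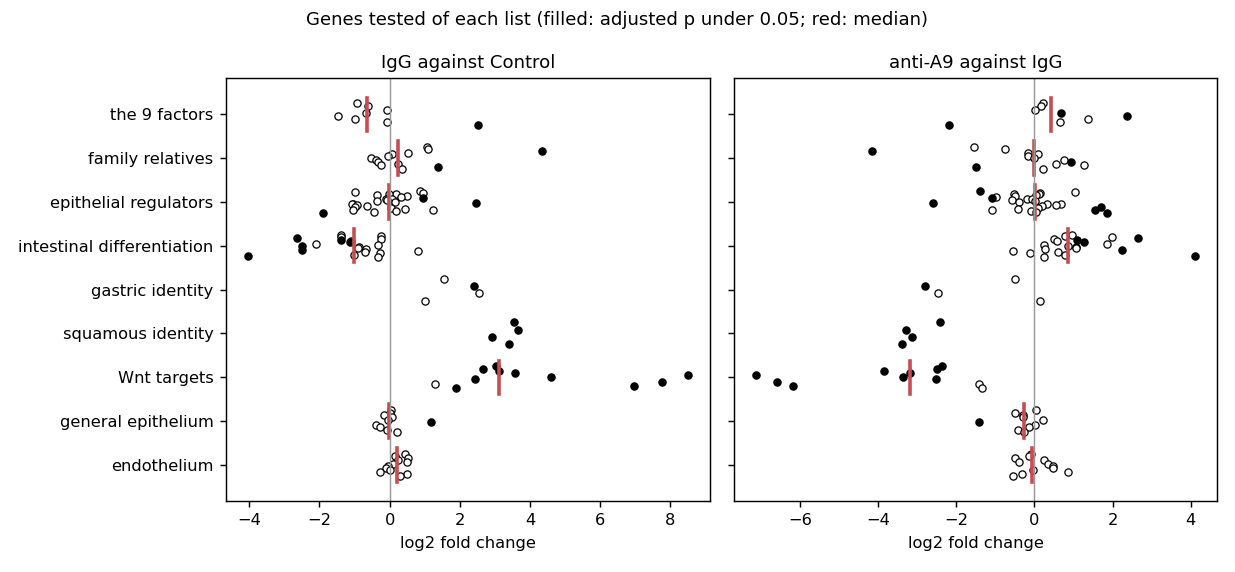
Log2 fold change (horizontal axis) of the genes tested in 9 lists, for IgG against Control and anti-A9 against IgG, filled for an adjusted p under 0.05, with the median of each list in red and without genes that passed the filter on low values only through 1 group. Medians are -1.01 and 0.86 for the differentiation list and 3.11 and -3.19 for the Wnt list, while the general epithelial and endothelial medians lie between -0.28 and 0.21. The gastric and squamous lists keep 4 genes each, and no median is drawn for them.

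Other cell types also differed between the groups. Smooth muscle markers summed to 1841 to 2911 FPKM in Control, 526 to 3289 in IgG and 2296 to 4162 in anti-A9, with 0 of 8 called in IgG against Control (3 of 8 at an unadjusted p under 0.05) and 2 of 8 called higher in anti-A9 than in IgG. Those smooth muscle calls, Synm and Myh11, held in 7 and 4 of 9 leave-one-out fits. Fibroblast markers were called higher in IgG than in Control for 4 of 7 and lower in anti-A9 than in IgG for 3 of 7. In IgG against Control the calls of Col1a1 and Col1a2 each held in 1 of 9 leave-one-out fits and that of Col3a1 in 5. In anti-A9 against IgG they held in 5 for Col1a1, 1 for Col1a2 and 5 for Col3a1. Of 4 adipocyte markers tested, 2 passed only through the Control group, and of the other 2, 1 was called lower in IgG than in Control. That call, for Cfd, held in 1 of 9 leave-one-out fits. No leukocyte marker was called (0 of 8) in any comparison by limma, and 0, 2 and 1 of them had an unadjusted p under 0.05. Of all 15278 genes tested, 4507, 5978 and 2439 had such a p in IgG against Control, anti-A9 against IgG and anti-A9 against Control. Of 5 enteric neuron and glia markers tested, 3 were called higher in anti-A9 than in IgG, and 1 without IgG replicate 1. The part of these cell types in the differences of the factors was not tested.

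For each factor the gene with the most similar course over the 9 samples was sought among 12551 genes with a mean of at least 1 FPKM, as the smallest root mean square difference in log2 level after subtracting each gene's mean. Hnf4a was closest to Cs, citrate synthase (0.0704), and Gata6 to Lasp1, an actin-binding protein (0.0705). Cdx1 was closest to Gal3st1, a sulfotransferase (0.141), Cdx2 to Trim46 (0.192), Klf4 to the receptor kinase Mertk (0.166), and Klf5 to mt-Nd5, a mitochondrially encoded subunit of complex I (0.163). Hnf4g was closest to A1cf, an RNA-binding cofactor of apolipoprotein B editing (0.268), and Sox17 to the LIM protein Ajuba (0.225). Ajuba was at 1.29, 1.51 and 1.39 FPKM in Control, 15.4, 4.95 and 7.96 in IgG and 2.59, 1.87 and 1.52 in anti-A9. These are descriptions over samples that share their groups and libraries.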

How the data were processed

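RNA of 9 mouse colon samples was sequenced (Solexa service), 3 per group. The authors deposited 1 table per sample with gene symbols and decimal values, read here as FPKM from their size and from Cufflinks in the processing notes, since the headers name no unit. A test on counts was therefore not run. Their processing notes name TopHat, Cufflinks, HTSeq and GRCm38, among others, with no versions. Rows with a repeated symbol were summed (21544 rows, 21498 symbols). The 15278 genes reaching 0.1 FPKM in 3 or more samples were compared on log2(FPKM + 0.1) with limma 3.58.1 (R 4.3.3), fitted to all 9 samples with an intensity trend and Benjamini-Hochberg adjustment, so fold changes of low genes are understated. Only the main limma fit was tested on simulated data, for IgG against Control, and the other steps were not. Depth is unknown, and replicate error comes from 3 mice per group, which the labels call biological replicates. Ratios within samples, taken on FPKM + 0.1, were compared by exact permutation tests. Length and GC content are those of the longest GENCODE M21 transcript, and their correction per sample (natural splines on 14926 genes) was chosen after seeing the data. Promoters are from RefSeq. The members and lists were chosen with earlier results of these data known. Beside the members, at most the 3 largest called rises and falls per list and comparison (mean of at least 1 FPKM in a group, no overlap) and genes listed at 0 could be named. Sox2 and Gapdh were added after their values were seen. Some genes of the lists are not reported here. Setting apart genes that passed the filter only through 1 group was also chosen after seeing the data.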

Additional observations from a re-analysis of the deposited data

How the results depend on the processing

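The count of factors called in IgG against Control was 1, and it was 2 with median-of-ratios scaling and 2 by the study's thresholds. It was 3 with the length and GC correction, 3 with the replicate block and 4 with both. The share of all genes called was 11.2% in the main fit and 9.92% with median-of-ratios scaling. It was 13.7% with the length and GC correction, 11.1% with the replicate block and 12.1% with both. By the study's thresholds 8.43% of all genes were higher and 5.19% lower. Leaving out each mouse gave 1 to 3 factors in IgG against Control, 0 to 4 in anti-A9 against IgG and 0 in anti-A9 against Control. Of all genes, these fits called 3.88% to 14.3%, 3.39% to 27.1% and 0% to 0.033% in the same order. The fit that called 4 factors, without Control replicate 3, was the one that called 27.1% of all genes. The labels do not say that replicate numbers pair the samples. Correlations of same-numbered deviations ranged from -0.187 to 0.249, but differently numbered samples were not compared, so these values cannot settle it. The block result (3 called) rests on a shared number only. No other count of factors moved by over 1.5 times under the block. Over all genes, the fit of only the groups compared called 518 genes higher and 109 lower in IgG against Control, where the fit of all samples called 1250 and 460. Quantile normalization called 947 and 631 there, and 1389 and 1706 in anti-A9 against IgG (1026 and 2193 without it), and the length and GC correction called 1055 and 986, and 956 and 1254. The median of all genes in IgG against Control moved by -0.10 with median-of-ratios scaling and by -0.12 with quantile normalization or the length and GC correction. Small differences changed sign. Hnf4a in anti-A9 against Control was -0.0041 with median-of-ratios scaling and -0.051 with the length and GC correction, with or without the block. The difference in the log2 ratio of Gata4 to Gata6 was 0.053 in IgG against Control with a pseudocount of 1. In anti-A9 against Control it was -0.22 with a pseudocount of 0.01 and -0.035 with quantile normalization. Relative to epithelial markers, the log2 difference in anti-A9 against Control was -0.052 and -0.15 for Gata4 under those settings. For Gata6 it was -0.12 with quantile normalization. Leaving out each mouse in turn, the log2 differences ran from -0.20 to 0.027 for Gata6 and from -0.61 to 0.24 for Klf5 in IgG against Control, from -0.24 to 0.46 for Cdx1, from -0.28 to 0.53 for Cdx2 and from -0.077 to 0.083 for Gata6 in anti-A9 against IgG, and from -0.061 to 0.12 for Hnf4a, from -0.19 to 0.035 for Gata6 and from -0.015 to 0.59 for Sox17 in anti-A9 against Control. The difference in the log2 ratio of Cdx1 to Cdx2 ran from -0.082 to 0.30 in anti-A9 against IgG. For Gata4 to Gata6 it ran from -0.40 to 0.037 in IgG against Control and from -0.045 to 0.55 in anti-A9 against IgG. In anti-A9 against Control it ran from -0.20 to 0.39 for Gata4 to Gata6 and from -0.45 to 0.19 for Klf4 to Klf5. Relative to epithelial markers, the log2 difference in anti-A9 against Control ran from -0.028 to 0.57 for Gata4 and from -0.0043 to 0.26 for Gata6. For Klf5 it ran from -0.72 to 0.28 in IgG against Control. Gata4 was at no more than 0.0884 FPKM in any sample, under the main pseudocount of 0.1, so its values here depend heavily on the pseudocount. What caused the moves beyond that was not tested. The length and GC correction was chosen after seeing the data, and the 11 settings that left out no single mouse (1 of them fitted only the groups compared) left the Sox17, Hnf4a and Hnf4g differences in anti-A9 against IgG called, in the same direction.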
